A study of Mus musculus with 6 samples.

Results

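The genes described here build, hold together and break down the hyaluronan-rich matrix of the aortic wall. They are the large proteoglycans versican (Vcan) and aggrecan (Acan), the link proteins Hapln1 and Hapln3, the hyaluronan synthases Has1, Has2 and Has3, and the hyaluronidases Hyal1 and Hyal2. These 9 genes were listed by name and matched by Ensembl identifier, so they are 9 of the 27815 identifiers in the deposited files, and all 9 were found. The study sequenced polyadenylated RNA from whole mouse aorta in 6 libraries, 2 in each of 3 groups, to set atherosclerotic against medial calcification of the vessel wall. The Ctrl libraries came from wild type C57BL/6 mice aged 2 months. The ApoE libraries came from C57BL/6 mice without the Apoe gene, which had eaten chow until 16 months of age and carried calcified atherosclerotic lesions. For the CKD libraries, both poles of the left kidney were taken out at 8 weeks of age and the right kidney 1 week later. Those mice then received 2% phosphate in the diet and 0.45% NaCl in the water for 4 weeks, a model of medial calcification in chronic kidney disease. Their age label nevertheless reads 16 months, so the age of the CKD mice is uncertain. Genotype and age differ together between ApoE and Ctrl, and their parts cannot be told apart. Nor can those of surgery, diet, water and possibly age between CKD and Ctrl, or of these and genotype between ApoE and CKD. No label says whether the 2 libraries of a group came from separate animals. The extraction text mentions pooling 4 samples for miRNA work, so SDs and p-values measure the spread between libraries, which may be technical.

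Hyaluronan is a long unsulfated sugar polymer that synthases in the plasma membrane extrude directly into the matrix. Versican and aggrecan carry chondroitin sulfate chains, bind hyaluronan at their N-terminal domain and are fastened to it by link proteins, which gives a hydrated gel that resists compression. In arteries, versican is made largely by smooth muscle cells and is known for its place in the intima and in lesions, while aggrecan is best known from cartilage. Hyaluronidases cut the polymer into fragments that cells take up and degrade.

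Depth, recovered from the scale of the values, ran from 14.44 to 16.64 M reads per library. A single read on 2 kb of exon therefore counted as 0.0300 to 0.0346 FPKM (fragments per kilobase of transcript, corrected for library size). Apoe, the deleted gene, stood at 756 and 627 FPKM in Ctrl, 13.2 and 11.4 in ApoE and 1410 and 1447 in CKD, with a low signal left in ApoE. Contractile smooth muscle markers, which define the aortic media, summed to 8991 and 8047 FPKM in Ctrl, 707 and 618 in ApoE and 3753 and 6359 in CKD. All 10 of those markers were lower in ApoE than in Ctrl by limma, and 2 of 10 were lower in CKD, at an adjusted p below 0.05. In CKD against Ctrl 8 of the 10 were lower with an unadjusted limma p below 0.05, and the list median was −0.76 on the log2 scale. Macrophage markers summed to 448 and 409 FPKM in Ctrl, 6104 and 9532 in ApoE and 873 and 1420 in CKD, with 7 of 8 higher in ApoE and 3 of 8 higher in CKD. In CKD against Ctrl 6 of the 8 were higher with an unadjusted limma p below 0.05. No contractile or macrophage marker was at 0 in any library. Mitochondrially encoded genes took 3.13% and 4.19% of reads in Ctrl, 9.66% and 10.89% in ApoE, and 9.99% and 5.70% in CKD, so that this share was higher in every ApoE and CKD library than in Ctrl. In whole tissue, fewer cells of a type and less RNA per cell cannot be told apart. The part of these shifts in the results on matrix genes was not tested.

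A gene was tested where it reached 1 FPKM in at least 2 libraries, which 14074 genes did. It was called where limma's adjusted p fell below 0.05. Of the 9 matrix genes 7 were tested, while Hapln3 and Has2 stayed under that level. Fold changes are differences of log2(FPKM + 1), a scale that understates the change of low genes. In ApoE against Ctrl 4 of the 7 tested genes were called, all lower. Over all genes tested 44.1% were called, 19.8% higher and 24.3% lower. In CKD against Ctrl 3 of the 7 were called, with Has1 higher and Hyal1 and Hyal2 lower, where 5.44% of all tested genes were called, 2.23% higher and 3.21% lower. In ApoE against CKD 5 of the 7 were called, with Hyal2 higher and Vcan, Has1, Has3 and Hyal1 lower. The share over all genes there was 39.7%, with 18.5% higher and 21.2% lower. With the values rescaled without mitochondrially encoded genes and the 50 most abundant genes, the counts among the 7 were again 4, 3 and 5. The median log2 fold change of the 7 tested genes was −1.54 in ApoE against Ctrl, −0.82 in CKD against Ctrl and −0.71 in ApoE against CKD. Over all tested genes the medians were −0.07, −0.03 and −0.04. Hapln1 passed the filter through its Ctrl libraries alone, so its presence among the tested genes favours a difference from Ctrl. The comparisons of ApoE and of CKD with Ctrl share the Ctrl libraries and are not independent.

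**Figure D1:**
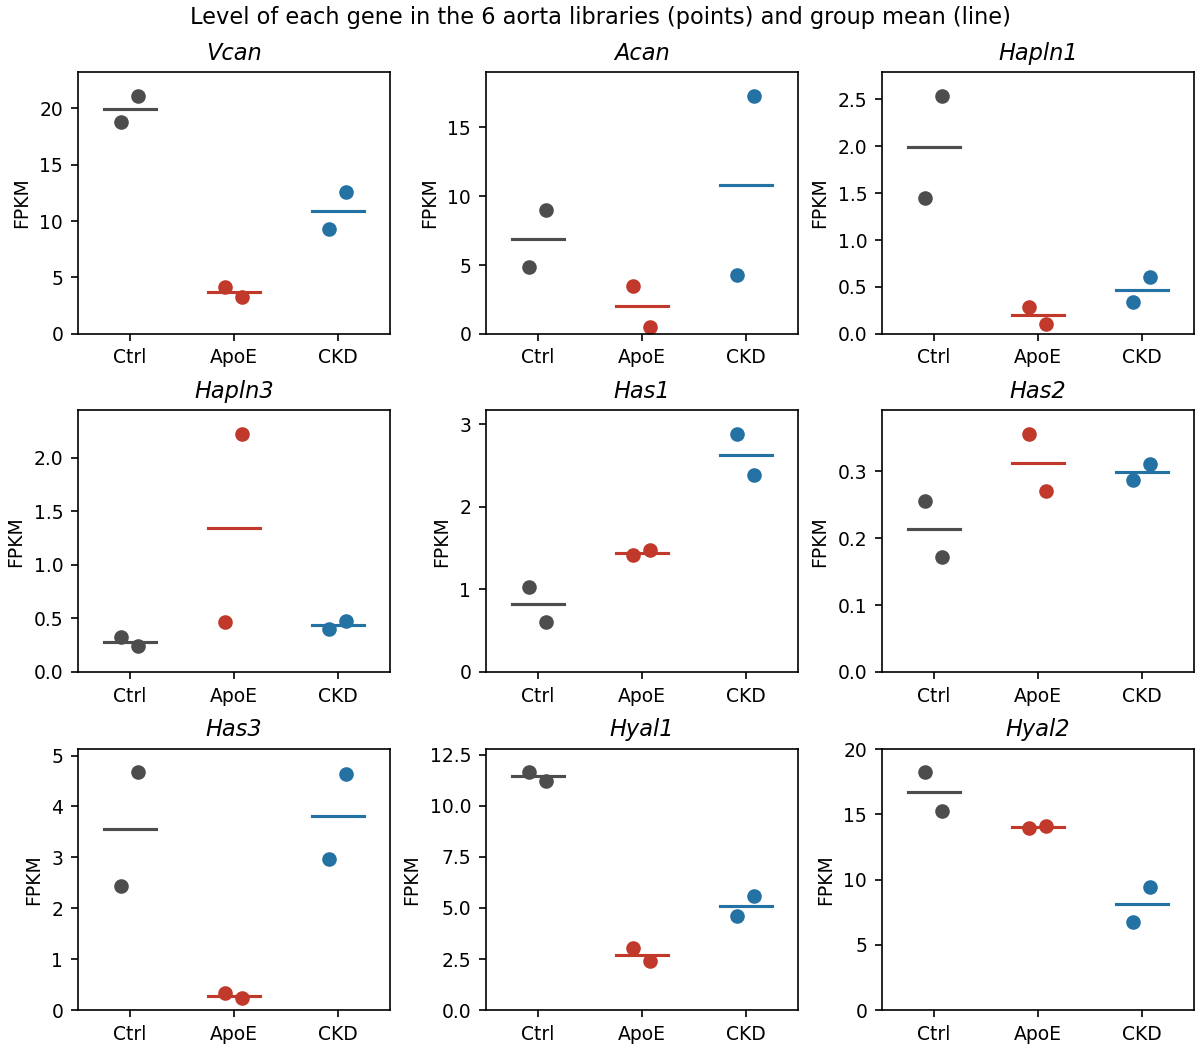
Level of each of the 9 genes (y axis, FPKM, a separate scale per panel) in the Ctrl, ApoE and CKD libraries, with 1 point per library and a line at the group mean. Vcan and Hyal1 fall into 3 levels without overlap, with Ctrl highest and ApoE lowest, while the Acan points of CKD lie at 4.30 and 17.3 FPKM.

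Versican was the most abundant of the 9 genes in Ctrl and fell in ApoE. Its mean was 19.95 ± 1.60 FPKM in Ctrl, 3.71 ± 0.682 in ApoE and 10.9 ± 2.31 in CKD (SD, n = 2 libraries in each group here and below). The single libraries read 18.8 and 21.1 FPKM in Ctrl, 4.19 and 3.22 in ApoE, and 9.30 and 12.6 in CKD. No library of a group overlapped another group, and every CKD library lay between Ctrl and ApoE. The log2 fold change in ApoE against Ctrl was −2.16 (SE 0.185, limma adjusted p = 0.00065), and it was called under all 14 alternative settings. Against CKD, Vcan was also lower in ApoE, by a log2 fold change of −1.34 (95% interval −1.79 to −0.88, limma adjusted p = 0.00391). In CKD against Ctrl the value was −0.82 (interval −1.28 to −0.37), which missed the threshold at an adjusted p of 0.0589 and passed it, at 0.0311, without CKD replicate 2. These levels rest on 693 to 4615 reads per library. Vcan lies on the minus strand of chromosome 13 at 89655312 to 89742509 (GRCm38, GENCODE M21, ENSMUSG00000021614), and no exon of another gene overlaps its exons.

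Aggrecan gave no call, and the libraries of a group lay far apart. Its single values were 4.84 and 8.99 FPKM in Ctrl, 3.50 and 0.531 in ApoE, and 4.30 and 17.3 in CKD. CKD replicate 1 lay below both Ctrl libraries and CKD replicate 2 above them, so those groups overlapped, while both ApoE libraries lay below every other library. The log2 fold change was −1.54 in ApoE against Ctrl (95% interval −3.35 to 0.27, limma adjusted p = 0.139) and 0.37 in CKD against Ctrl (interval −1.44 to 2.18, adjusted p = 0.766). These intervals leave room for a large difference either way in CKD. In ApoE against CKD it was −1.91 (interval −3.71 to −0.10, adjusted p = 0.0873) and became −2.80, with an adjusted p of 0.0416, without CKD replicate 1. The direction of Acan in CKD against Ctrl also turned on a library: it was −0.02 without Ctrl replicate 1 and −0.53 without CKD replicate 2. The libraries held between 59 and 1864 Acan reads.

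Cartilage markers did not move as a block beside Acan. Col2a1, the main fibrillar collagen of cartilage, read 0.0701 and 0.033 FPKM in Ctrl, 5.34 and 7.30 in ApoE and 0.101 and 0.219 in CKD, with a log2 fold change of 2.79 in ApoE against Ctrl (limma adjusted p = 0.000322). It passed the filter through its ApoE libraries alone, which favours a difference there. Comp, a cartilage oligomeric matrix protein also made in arteries, read 43.9 and 39.5 FPKM in Ctrl, 19.8 and 9.39 in ApoE, and 66.2 and 107 in CKD. It fell in ApoE by 1.54 on the log2 scale (limma adjusted p = 0.0212). Of the 10 cartilage markers 5 were tested, of which 2 were higher and 2 lower in ApoE than in Ctrl, and limma called none in CKD against Ctrl, where 3 had an unadjusted p below 0.05. Their sums were 869 and 684 FPKM in Ctrl, 191 and 268 in ApoE and 292 and 450 in CKD, most of it from Cytl1. Matn1, a cartilage matrilin, stood at 0 in 3 of the 6 libraries. The part of cartilage-like cells in the Acan values was not tested.

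The balance of both core proteins differed from library to library. Versican made up 79.6% and 70.1% of the summed Vcan and Acan level in Ctrl, 54.4% and 85.8% in ApoE, and 68.4% and 42.1% in CKD. The groups overlapped in this share. In CKD replicate 2 and in no other library Acan stood above Vcan.

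Hapln1, the link protein that locks hyalectans to hyaluronan, lies beside Vcan on chromosome 13, with 43.7 kb and no protein-coding gene between them. It was read at 1.45 and 2.54 FPKM in Ctrl, 0.286 and 0.107 in ApoE, and 0.335 and 0.603 in CKD. Both Ctrl libraries stood above all others, and the ApoE libraries stood below both CKD libraries. It fell in ApoE against Ctrl by 1.30 on the log2 scale (SE 0.236, limma adjusted p = 0.00766). With a pseudocount of 0.1 in place of 1 that change was −2.84, still called. Without ApoE replicate 2 the adjusted p rose to 0.0544, and without either Ctrl library the gene dropped under the filter. In CKD against Ctrl the log2 fold change was −1.01 (interval −1.59 to −0.43, adjusted p = 0.0628), and in ApoE against CKD it was −0.29 (interval −0.87 to 0.29, adjusted p = 0.363). Hapln1 runs on the plus strand at 89539796 to 89611652 (ENSMUSG00000021613).

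Vcan and Hapln1 are neighbours whose levels were both highest in Ctrl, so the 300 bases around their start sites are printed here (250 before to 50 after, 5′ to 3′ along the gene's own strand, RefSeq, GRCm38.p6). Capitals mark the SP1 motif GGGCGG, read on either strand. The Vcan stretch is chr13:89742463-89742762 on the minus strand, and the Hapln1 stretch is chr13:89540386-89540685 on the plus strand, 840 bases from the GENCODE start.
Vcan: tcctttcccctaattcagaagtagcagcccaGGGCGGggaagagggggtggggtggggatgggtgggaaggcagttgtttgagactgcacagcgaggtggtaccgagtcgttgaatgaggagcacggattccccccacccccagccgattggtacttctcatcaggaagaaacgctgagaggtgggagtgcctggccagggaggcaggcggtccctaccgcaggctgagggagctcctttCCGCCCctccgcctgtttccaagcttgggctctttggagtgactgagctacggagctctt
Hapln1: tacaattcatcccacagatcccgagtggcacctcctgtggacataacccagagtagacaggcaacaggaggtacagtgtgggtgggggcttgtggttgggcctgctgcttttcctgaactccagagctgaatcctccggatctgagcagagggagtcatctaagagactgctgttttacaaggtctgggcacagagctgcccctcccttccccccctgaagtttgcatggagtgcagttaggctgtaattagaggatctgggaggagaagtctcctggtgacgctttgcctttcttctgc
The Vcan stretch held 61.0% G and C, 12 CpG pairs and the SP1 motif beginning 219 and 10 bases before the start. The Hapln1 stretch held 54.3% G and C, 3 CpG pairs and none of the 5 motifs searched on both strands. Besides SP1, those were the TATA box TATAAA, the AP-1 motif TGANTCA, the TCF/LEF motif CTTTGA and the CArG box, which serum response factor binds in contractile genes. Of 32851 RefSeq promoters of the same length, 35.7% held the SP1 motif, 13.6% the TATA box, 7.8% AP-1, 16.0% TCF/LEF and 1.6% the CArG box. Their median was 52.7% G and C and 7 CpG pairs. Of the 9 genes 7 had an entry, and a match is a string of letters, not a bound site.

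Hapln3, a link protein found more widely outside cartilage, sits tail to tail with Acan on chromosome 7, with 2 bp between their annotated ends. Its values were 0.325 and 0.245 FPKM in Ctrl, 0.464 and 2.22 in ApoE and 0.404 and 0.473 in CKD. It stayed at 0.473 FPKM or lower in every library but ApoE replicate 2 (116 reads), which reached 2.22, so it was not tested. The other hyalectans and link proteins, neurocan, brevican, Hapln2 and Hapln4, known mainly from the nervous system, stayed under the filter too. The highest of them in any library was Ncan at 0.462 FPKM in CKD replicate 2.

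Has3 fell in ApoE and Has1 rose in CKD, and the mix of synthase mRNA differed between groups. Has3 led in Ctrl with 65.4% and 85.8% of the summed synthase level, and Has1 led in ApoE with 67.2% and 74.7%. In CKD Has1 took 46.9% and 32.5% and Has3 48.4% and 63.3%. The summed level of the 3 synthases was 3.73 and 5.44 FPKM in Ctrl, 2.1 and 1.98 in ApoE, and 6.14 and 7.34 in CKD. In each of these measures the ApoE libraries did not overlap those of Ctrl.

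Has3, the synthase usually tied to shorter hyaluronan chains, was read at 2.44 and 4.67 FPKM in Ctrl, 0.334 and 0.232 in ApoE, and 2.97 and 4.65 in CKD. The ApoE libraries held 34 and 22 reads against at least 259 elsewhere, and Ctrl and CKD overlapped. Has3 fell in ApoE against Ctrl by 1.78 on the log2 scale (SE 0.288, limma adjusted p = 0.00526) and against CKD by 1.88 (adjusted p = 0.00536). Both calls held in all 14 alternative settings, and with a pseudocount of 0.1 the values were −3.20 and −3.33. Between CKD and Ctrl the log2 fold change was 0.10 (interval −0.61 to 0.81, adjusted p = 0.84). Its sign turned to −0.26 without Ctrl replicate 1 and −0.15 without CKD replicate 2. Has3 (ENSMUSG00000031910, chromosome 8) shares 352 bp, 5.5% of its exon length, with Chtf8 on the opposite strand, and the libraries do not mark strand.

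Has1, an inducible synthase with low basal activity, was the member that rose in CKD. Its values were 1.04 and 0.601 FPKM in Ctrl, 1.41 and 1.48 in ApoE, and 2.88 and 2.39 in CKD. The 3 groups did not overlap, with Ctrl lowest and CKD highest. The rise in CKD against Ctrl was 1.01 on the log2 scale (SE 0.175, interval 0.58 to 1.44, limma adjusted p = 0.0392). In ApoE against Ctrl the value was 0.44 (interval 0.01 to 0.87, adjusted p = 0.0884). Has1 was lower in ApoE than in CKD by a log2 fold change of −0.57 (adjusted p = 0.0462), a call that no leave-one-out fit kept, with adjusted p from 0.0584 to 0.15. Mesothelial markers, which come from the membrane that covers the outer wall and which is a known site of hyaluronan synthesis, moved alongside. They summed to 0.456 and 1.06 FPKM in Ctrl, 9.88 and 5.88 in ApoE and 61.1 and 47.4 in CKD. All 5 tested were higher in CKD than in Ctrl, 4 of 5 were higher in ApoE, and Wt1 was at 0 in both Ctrl libraries. Lrrn4, 1 of those 5, passed the filter through its CKD libraries alone. Other marker sums that were higher in both CKD libraries included those of cardiomyocytes. They stood at 4.61 and 4.31 FPKM in Ctrl, 8.55 and 9.13 in ApoE and 23.8 and 30.1 in CKD. Of 4 tested cardiomyocyte markers 3 were called higher in CKD against Ctrl. In ApoE against Ctrl 2 were called higher and Tnnt2 lower (log2 fold change −0.615, limma adjusted p = 0.027). Nppa, under the filter, read 0.0695 and 0.0764 FPKM in Ctrl and 0 in every ApoE and CKD library. Mast cell markers summed to 29.4 and 41.5 FPKM in Ctrl, 62.0 and 60.9 in ApoE and 78.5 and 82.0 in CKD. Of 6 tested, 4 were called higher in CKD against Ctrl, where 2.23% of all tested genes were. Hdc, 1 of those 4, passed the filter through its CKD libraries alone. The part of these cell types in the Has1 values was not tested.

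The Has1 start region is shown because its level alone among the 9 genes was called higher in CKD (chr17:17855139-17855438, minus strand, same build and layout).
Has1: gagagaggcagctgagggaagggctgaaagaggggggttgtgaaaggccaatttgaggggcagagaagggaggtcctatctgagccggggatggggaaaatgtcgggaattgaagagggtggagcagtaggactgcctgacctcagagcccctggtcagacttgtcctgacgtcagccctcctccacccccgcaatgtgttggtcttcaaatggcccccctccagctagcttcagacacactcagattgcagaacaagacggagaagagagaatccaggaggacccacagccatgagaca
It held 57.0% G and C and 5 CpG pairs, and none of the 5 motifs was found in these 300 bases.

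Has2, the synthase known as the main one in vascular development, was close to the floor in all groups. It read 0.255 and 0.172 FPKM in Ctrl, 0.355 and 0.270 in ApoE and 0.287 and 0.311 in CKD, on 11 to 24 reads per library. Every ApoE and CKD library lay above both Ctrl libraries by small steps, and Has2 was not tested. Such read numbers do not resolve steps of that size. Of its exon length 4.3% is shared with the antisense gene Has2os.

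**Figure D2:**
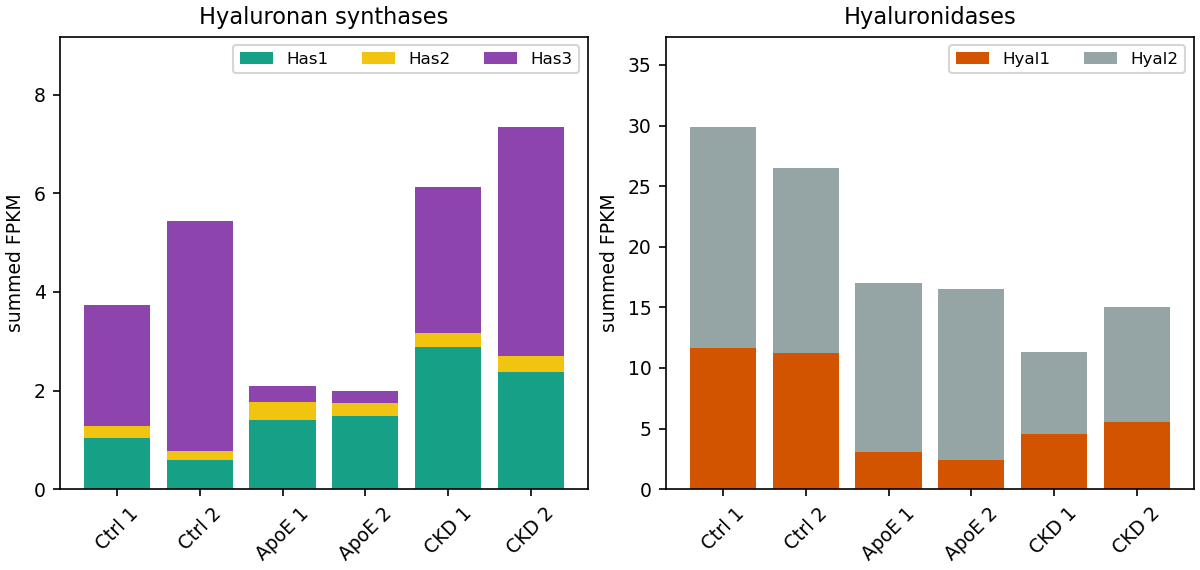
Stacked bars of FPKM in each of the 6 libraries for the hyaluronan synthases Has1, Has2 and Has3 (left) and the hyaluronidases Hyal1 and Hyal2 (right), on linear axes from 0. Has3 makes up most of the Ctrl bars and Has1 most of the ApoE bars, and the hyaluronidase bars are highest in Ctrl at 29.9 and 26.5 FPKM.

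Both hyaluronidases were highest in Ctrl, and each was lowest in a different disease group. Hyal1, the lysosomal enzyme that degrades hyaluronan to small fragments, read 11.6 and 11.2 FPKM in Ctrl, 3.02 and 2.40 in ApoE and 4.58 and 5.57 in CKD. The groups did not overlap, and the Ctrl libraries lay close together. Hyal1 fell by 1.75 on the log2 scale in ApoE against Ctrl (SE 0.147, limma adjusted p = 0.000592), a call kept in all 14 alternative settings. Against Ctrl it also fell in CKD, by 1.04 (interval −1.40 to −0.68, adjusted p = 0.0288). ApoE lay below CKD by a log2 fold change of −0.71 (adjusted p = 0.0133), which was lost at an adjusted p of 0.0728 without ApoE replicate 2. Reads of Hyal1 are uncertain, since 1920 bp, 50.8% of its exon length, are shared with Naa80 on the same strand and 159 bp with Hyal3.

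Hyal2, a membrane-anchored enzyme that makes the initial cut in long hyaluronan, lies 4.1 kb from Hyal1 on chromosome 9. Its values were 18.2 and 15.3 FPKM in Ctrl, 14.0 and 14.1 in ApoE, and 6.76 and 9.46 in CKD. Both CKD libraries lay below every other library, and the ApoE libraries lay below both Ctrl libraries by a smaller step. Hyal2 fell in CKD against Ctrl by 0.97 on the log2 scale (interval −1.41 to −0.53, limma adjusted p = 0.0429). In ApoE against Ctrl the value was −0.23 (interval −0.67 to 0.21, adjusted p = 0.329), and in ApoE against CKD it was 0.74 higher in ApoE (interval 0.30 to 1.18, adjusted p = 0.0221). That last call was lost without ApoE replicate 1, ApoE replicate 2 or CKD replicate 1, at adjusted p of 0.0872, 0.099 and 0.0526. Hyal1 made up 38.9% and 42.3% of the summed hyaluronidase level in Ctrl, 17.8% and 14.6% in ApoE, and 40.4% and 37.1% in CKD. The ApoE share was lower than in every other library.

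The Hyal1 start region is shown as that of the member with the smallest adjusted p in ApoE against Ctrl (chr9:107576700-107576999, plus strand, same build and layout).
Hyal1: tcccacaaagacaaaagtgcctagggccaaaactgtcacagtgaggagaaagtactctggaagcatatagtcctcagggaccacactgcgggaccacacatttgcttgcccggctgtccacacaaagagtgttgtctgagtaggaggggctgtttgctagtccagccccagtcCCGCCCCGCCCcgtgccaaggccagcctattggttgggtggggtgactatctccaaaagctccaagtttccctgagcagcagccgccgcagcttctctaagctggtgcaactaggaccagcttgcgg
The SP1 motif begins on the minus strand 77 and 72 bases before the start, and both copies overlap in the run of capitals. The stretch held 57.0% G and C and 8 CpG pairs.

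The 3 calls in CKD against Ctrl rested on few of the settings. Has1, Hyal1 and Hyal2 each stayed called in 1 of 6 leave-one-out fits, the one without CKD replicate 2. Their highest adjusted p in those fits were 0.174, 0.198 and 0.255.

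**Figure D3:**
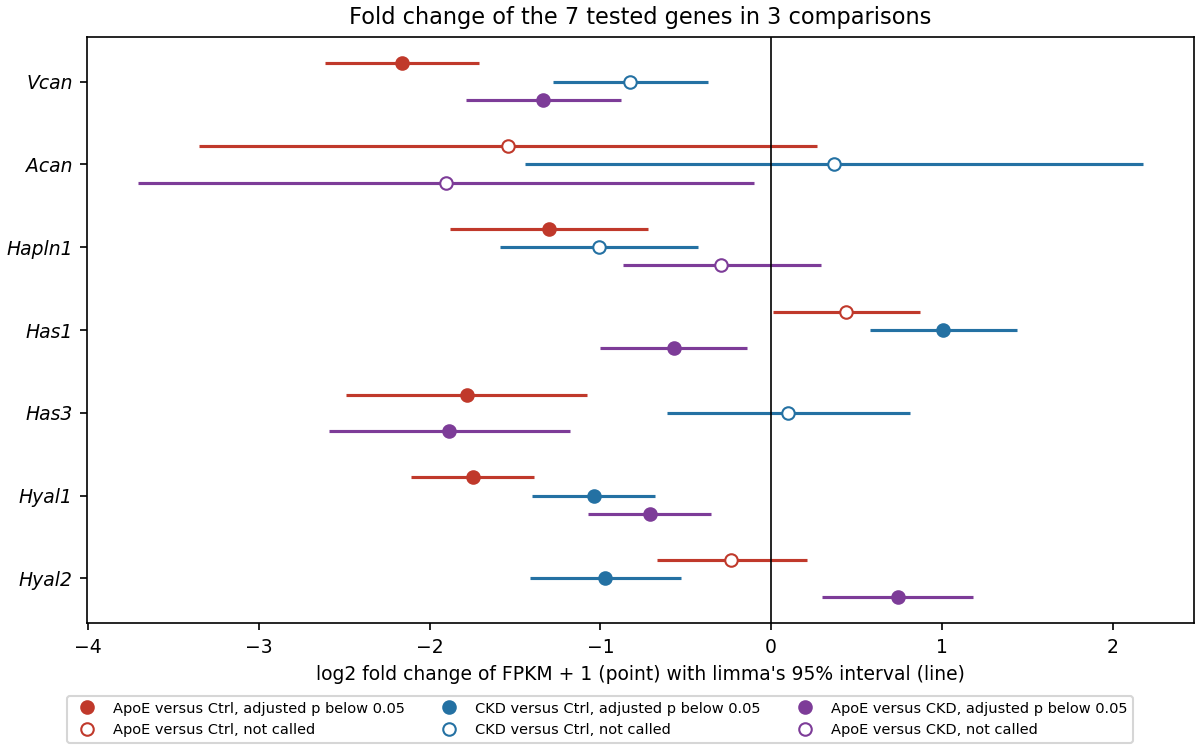
Log2 fold change of FPKM + 1 (x axis, points) with limma's 95% interval (lines) for the 7 tested genes in ApoE against Ctrl, CKD against Ctrl and ApoE against CKD, with filled points for adjusted p below 0.05. Vcan at −2.16, Has3 at −1.78 and Hyal1 at −1.75 are the farthest called points to the left in ApoE against Ctrl, and the Acan intervals are the widest.

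The order of the 9 genes by mean level differed between groups. In Ctrl it ran Vcan, Hyal2, Hyal1, Acan, Has3, Hapln1, Has1, Hapln3 and Has2, and the neighbours that overlapped were Has3 with Hapln1 and Hapln3 with Has2. In ApoE Hyal2 stood above Vcan, and the libraries of Hyal1, Acan, Has1 and Hapln3 overlapped from each to the next, as did those of Has2, Has3 and Hapln1. In CKD Vcan, Acan and Hyal2 overlapped at the top, Hyal1 overlapped Has3, Hapln1 overlapped Hapln3, and Has2 was lowest.

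The genes whose log2(FPKM + 1) ran closest to each called member over the 6 libraries were sought among 7461 genes that averaged 5 FPKM or more. With 6 points in 3 groups, such a Pearson r describes these libraries and shares their depth and makeup. Closest to Vcan were Olfr1033 (0.9998), Itga1 (0.9996) and Pcm1 (0.9992), and closest to Hapln1 were Cisd2 (0.989), Zfp148 (0.9882) and Sin3a (0.9862). Closest to Has1 were Gars (0.9897), Eif3b (0.9854) and Armc5 (0.9848), and to Has3 Fgf1 (0.9931), Med13 (0.993) and Thap12 (0.9923). For Hyal1 they were Ptp4a3 (0.9993), Ccdc85b (0.9974) and Cavin1 (0.9973), and for Hyal2 Irgm2 (0.9994), Tmem129 (0.9988) and Vps26b (0.996). Itga1, the collagen-binding integrin alpha 1 subunit, read 13.4 and 15.3 FPKM in Ctrl, 3.72 and 3.14 in ApoE and 7.38 and 9.59 in CKD. Cavin1, a caveolar coat protein, read 323 and 302 FPKM in Ctrl, 146 and 137 in ApoE and 180 and 211 in CKD. Both had the group order of Vcan and Hyal1, with Ctrl highest and ApoE lowest, which follows from how they were picked.

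The wider pathway was taken from 10 lists with 76 genes, of which 72 were in the files and 61 were tested. In ApoE against Ctrl 29 of the 61 were called, 12 higher and 17 lower, with a median of −0.08. CKD against Ctrl gave 6 calls, 3 higher and 3 lower, with a median of −0.04, and in ApoE against CKD 32 were called, 15 higher and 17 lower, with a median of −0.08. Over all tested genes 44.1%, 5.44% and 39.7% were called in these comparisons, in that order. In every list, the genes named beyond the 3 with the smallest adjusted p in a comparison were chosen after their values were seen. Among the other genes named below or above, exons shared with another annotated gene cover 28.3% of the exon length of Pgm3, 24.7% of Ccdc85b and 20.1% of Fbn1. They also cover 17.9% of Chst15 and of Armc5, 12.8% of Hexa and 10.6% of Adamts8. For 3 more genes the overlap is with 2 genes each, at 32.3% and 7.7% of Arsb, 9.2% and 2.8% of Adamts9, and 9.1% and 1.3% of Tmem129. The values of all these genes are uncertain to that extent, and smaller overlaps are not listed. In CKD against Ctrl, where limma called none of the tested cleaving proteins, receptors, cross-linking proteins, lysosomal enzymes or matrix partners, 0, 2, 2, 0 and 1 of them had an unadjusted p below 0.05.

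Among the other proteins that cleave hyaluronan, Cemip was close to absent outside ApoE. Cemip, a secreted protein that drives the breakdown of hyaluronan, read 0.00491 and 0.0216 FPKM in Ctrl, 4.23 and 5.22 in ApoE, and 0.0111 and 0.0396 in CKD. It passed the filter through its ApoE libraries alone, and its log2 fold change in ApoE against Ctrl was 2.49 (limma adjusted p = 0.000317), or 5.41 with a pseudocount of 0.1. Its relative Cemip2 was not called and read 10.1 and 10.0 FPKM in Ctrl, 9.14 and 5.96 in ApoE and 5.22 and 11.2 in CKD. So in the ApoE libraries, where Hyal1 and Has3 were lowest, Cemip was highest.

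Of 5 tested hyaluronan receptors 2 were called, both higher, in ApoE against Ctrl, where 44.1% of all tested genes were called. None of the 5 was called in CKD against Ctrl, where that share was 5.44%. Cd44, the main cell surface receptor, read 7.503 and 6.80 FPKM in Ctrl, 37.8 and 33.9 in ApoE, and 8.58 and 12.7 in CKD, a log2 fold change of 2.18 in ApoE against Ctrl (limma adjusted p = 0.00076). Stab2, a scavenger receptor that clears hyaluronan, read 0.0686 and 0.0604 FPKM in Ctrl, 1.99 and 4.09 in ApoE, and 0.0463 and 0.0633 in CKD, and it passed the filter through ApoE alone. Its log2 fold change in ApoE against Ctrl was 1.87 (adjusted p = 0.00359), or 4.17 with a pseudocount of 0.1. Lyve1, the receptor of lymphatic endothelium and resident macrophages, read 40.4 and 44.1 FPKM in Ctrl, 43.5 and 13.4 in ApoE, and 89.7 and 141 in CKD. It was lower in ApoE than in CKD (log2 fold change −2.17, adjusted p = 0.0229), which was lost without ApoE replicate 2 or CKD replicate 2, at adjusted p up to 0.093, and not called in CKD against Ctrl (1.39, adjusted p = 0.148). Cd44 and Stab2 are also made by macrophages, whose marker sums are given above, and the macrophage part in these values was not tested.

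Of all tested genes 24.3% were called lower in ApoE against Ctrl, and of 6 tested hyaluronan cross-linking proteins 3 were. Those 3 belong to the gene family named for the heavy chains of the inter-alpha-trypsin inhibitor. Itih2 read 18.8 and 20.8 FPKM in Ctrl, 3.37 and 1.93 in ApoE and 8.45 and 18.9 in CKD, and fell by 2.54 in ApoE against Ctrl (limma adjusted p = 0.00384). Itih3 fell by 0.97 (adjusted p = 0.0135) and Itih4 by 1.96 (adjusted p = 0.0293). The last 2 were lost in some leave-one-out fits, with adjusted p up to 0.0812 and 0.109. Tnfaip6, the enzyme that moves heavy chains of the inhibitor onto hyaluronan, was not called and read 4.43 and 4.37 FPKM in Ctrl, 3.34 and 2.95 in ApoE, and 3.44 and 6.52 in CKD.

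Enzymes that make the UDP-sugars for hyaluronan were called lower in ApoE than in CKD for 4 of 7 tested, beside 21.2% of all tested genes. In ApoE against Ctrl limma called none, where 1 had an unadjusted p below 0.05 and 44.1% of all tested genes were called. Ugp2, which makes UDP-glucose, had the highest level of the list and a value of 0.40 there (adjusted p = 0.0574). Ugdh, which makes UDP-glucuronate, read 11.3 and 9.95 FPKM in Ctrl, 11.7 and 9.64 in ApoE, and 33.8 and 24.5 in CKD. It rose in CKD against Ctrl by 1.36 on the log2 scale (limma adjusted p = 0.0289) and was lower in ApoE than in CKD by a log2 fold change of −1.36 (adjusted p = 0.00413). Gfpt2, which feeds the hexosamine pathway, read 12.4 and 9.07 FPKM in Ctrl, 16.2 and 7.18 in ApoE, and 29.3 and 26.8 in CKD, a value of 1.32 in CKD against Ctrl with an adjusted p of 0.0797. Uap1, Pgm3 and Gfpt2 were lower in ApoE than in CKD (log2 fold changes −0.67, −0.85 and −1.29), and Gfpt1 was higher (0.60, adjusted p = 0.0103). The Uap1 call was kept in 2 of 6 leave-one-out fits, with adjusted p up to 0.141, and the Gfpt1 call in 5 of 6. The synthase Has1 and the precursor enzyme Ugdh were each called higher in CKD than in Ctrl. Neither call held in the fit of only the 4 libraries compared, nor without a filter on low values.

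**Figure D4:**
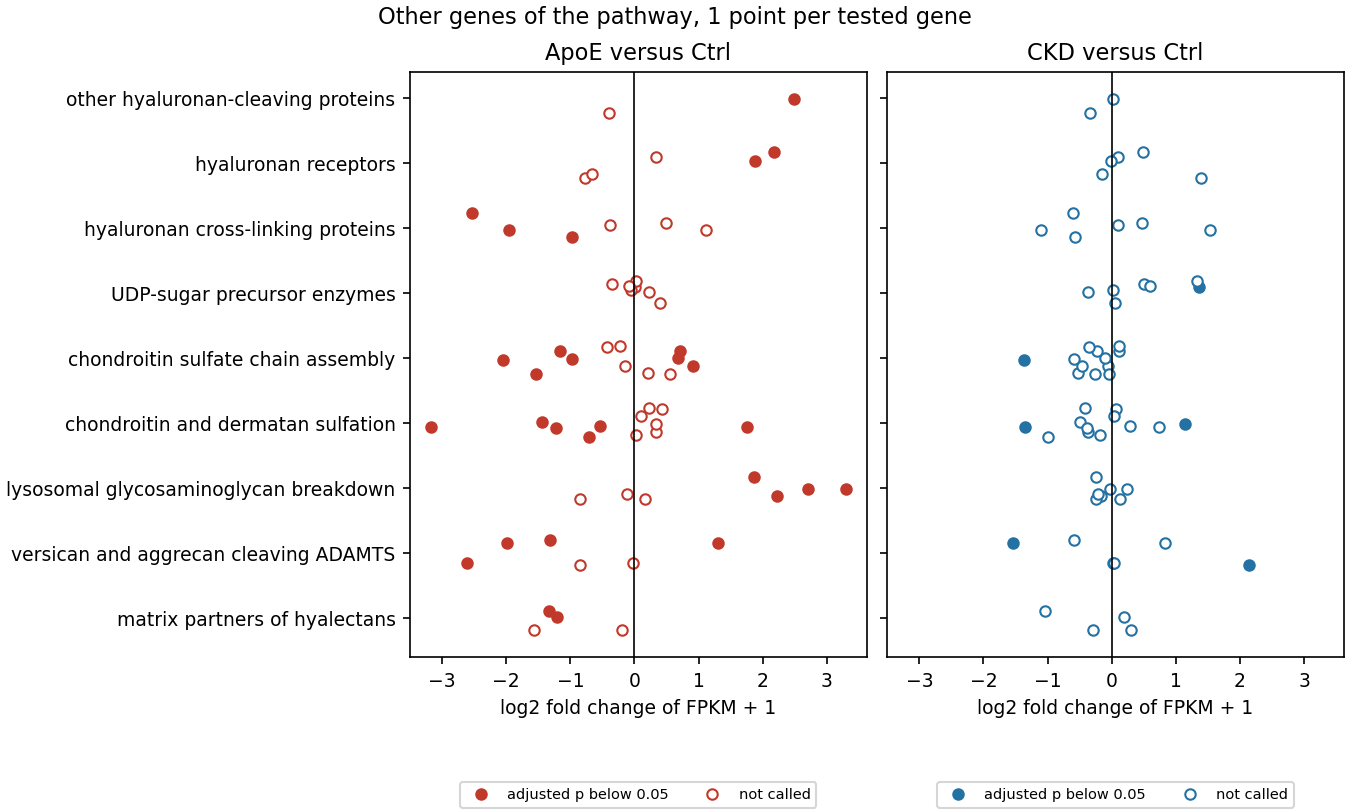
Log2 fold change of FPKM + 1 (x axis) of the other tested pathway genes, 1 point per gene in rows by list, in ApoE against Ctrl (left) and CKD against Ctrl (right), with filled points for adjusted p below 0.05. The lysosomal row reaches 3.30 in ApoE with Gusb and holds no filled point in CKD.

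Chondroitin sulfate assembly builds the chains of versican and aggrecan. Of its 12 tested genes 3 were called higher and 4 lower in ApoE against Ctrl. The shares over all tested genes there were 19.8% and 24.3%. Csgalnact1, which starts the chondroitin chain, read 8.01 and 8.19 FPKM in Ctrl, 0.936 and 1.51 in ApoE, and 1.82 and 3.40 in CKD. It fell by 2.05 in ApoE (limma adjusted p = 0.00194) and by 1.37 in CKD (adjusted p = 0.041) against Ctrl. Csgalnact2, Chsy3 and Chpf also fell in ApoE, by 1.17, 1.54 and 0.97. The xylosyltransferases Xylt1 and Xylt2, which attach the linker sugar to the core protein, and the linker enzyme B4galt7 rose in ApoE by 0.92, 0.71 and 0.67. The 5 genes of the list that were not called ran from −0.43 for Chsy1 to 0.55 for B3galt6, with the linker genes B3gat3 at 0.21 and Fam20b at −0.14.

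Of the 12 tested sulfation genes 1 was called higher and 5 lower in ApoE against Ctrl. Over all tested genes 19.8% were called higher and 24.3% lower there. Chst3, a chondroitin 6-O-sulfotransferase, read 18.8 and 21.2 FPKM in Ctrl, 1.55 and 1.12 in ApoE, and 5.93 and 8.76 in CKD. It fell by 3.18 in ApoE against Ctrl (limma adjusted p = 0.000311) and by 1.35 in CKD against Ctrl (adjusted p = 0.0326). The groups did not overlap, and their order was that of Vcan. Ust, Dsel, Chst12 and Papss2 fell in ApoE by 1.44, 1.23, 0.71 and 0.54. Chst11, a chondroitin 4-O-sulfotransferase, rose in ApoE by 1.76 (adjusted p = 0.000743), from 2.69 and 3.06 FPKM in Ctrl to 13.6 and 10.7. Chst12, another 4-O-sulfotransferase and the more abundant, went the other way, from 34.5 and 25.1 FPKM in Ctrl to 16.4 and 19.0 in ApoE. Chst7, another 6-O-sulfotransferase, was not called in ApoE against Ctrl (0.34, limma adjusted p = 0.205). In CKD Chst15, which adds a further sulfate to 4-sulfated chains, rose by 1.15 (adjusted p = 0.0279).

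Of the 7 tested lysosomal enzymes that degrade glycosaminoglycans, 4 were called higher in ApoE against Ctrl, beside 19.8% of all tested genes. None was called lower there, and none was called in CKD against Ctrl, where the share over all genes was 5.44%. The other 3 were not called, with log2 fold changes in ApoE against Ctrl of 0.16 for Arsb, −0.12 for Idua and −0.85 for Ids (limma adjusted p = 0.0599). Gusb, the beta-glucuronidase that trims hyaluronan and chondroitin fragments, read 16.3 and 15.6 FPKM in Ctrl, 160.6 and 170.3 in ApoE and 12.2 and 20.1 in CKD, a log2 fold change of 3.30 (limma adjusted p = 0.000396). Hexa, a subunit of beta-hexosaminidase, and Galns, a sulfatase, rose in ApoE by 2.23 and 2.71. Macrophages are rich in lysosomal enzymes, and the part of their higher marker sums in these values was not tested.

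The ADAMTS proteases that cut versican and aggrecan had 3 of 6 tested called lower and 1 higher in ApoE against Ctrl. The shares over all tested genes there were 24.3% lower and 19.8% higher. Adamts1, a versican-cleaving enzyme, read 80.5 and 113.5 FPKM in Ctrl, 21.4 and 10.2 in ApoE, and 74.4 and 126 in CKD, and fell in ApoE by 2.61 (limma adjusted p = 0.00494). Adamts8 fell in ApoE by 1.98 (adjusted p = 0.00076) and in CKD by 1.54 (adjusted p = 0.0227), and Adamts9 fell in ApoE by 1.31 (adjusted p = 0.0019). Adamts4, an aggrecanase, rose in ApoE by 1.30 (adjusted p = 0.0104), from 0.162 and 0.110 FPKM in Ctrl to 2.34 and 1.36. Adamts15 read 4.47 and 6.36 FPKM in Ctrl, 3.65 and 1.68 in ApoE, and 26.8 and 27.2 in CKD. It rose in CKD against Ctrl by 2.14 (adjusted p = 0.0274), and was lower in ApoE than in CKD (log2 fold change −2.99, adjusted p = 0.00138). Adamts5 was not called and stood between 4.51 and 13.0 FPKM in all 6 libraries.

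Among 4 tested matrix partners of the hyalectans, tenascin C (Tnc) and fibrillin 1 (Fbn1) fell in ApoE against Ctrl. Of all tested genes 24.3% were called lower there. None of the 4 was called in CKD against Ctrl, where the share over all genes was 5.44%. In that comparison Fbln2, the most abundant by its mean over all 6 libraries, had a value of 0.29 (limma adjusted p = 0.322). Fbln1, which stood above Fbln2 in both Ctrl libraries, had a value of −0.29 there (adjusted p = 0.737). Tnc, which binds the C-terminal domain of versican, read 20.6 and 18.2 FPKM in Ctrl, 6.07 and 8.28 in ApoE, and 7.01 and 11.3 in CKD, and fell in ApoE by 1.33 (limma adjusted p = 0.00801). Fbn1, the core of microfibrils, fell in ApoE by 1.21 (adjusted p = 0.041), a call kept in 3 of 6 leave-one-out fits with adjusted p up to 0.134. The 6 pathway calls in CKD against Ctrl (Ugdh, Csgalnact1, Chst3, Chst15, Adamts8 and Adamts15) were each kept in 1 of 6 leave-one-out fits, the one without CKD replicate 2.

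**Figure D5:**
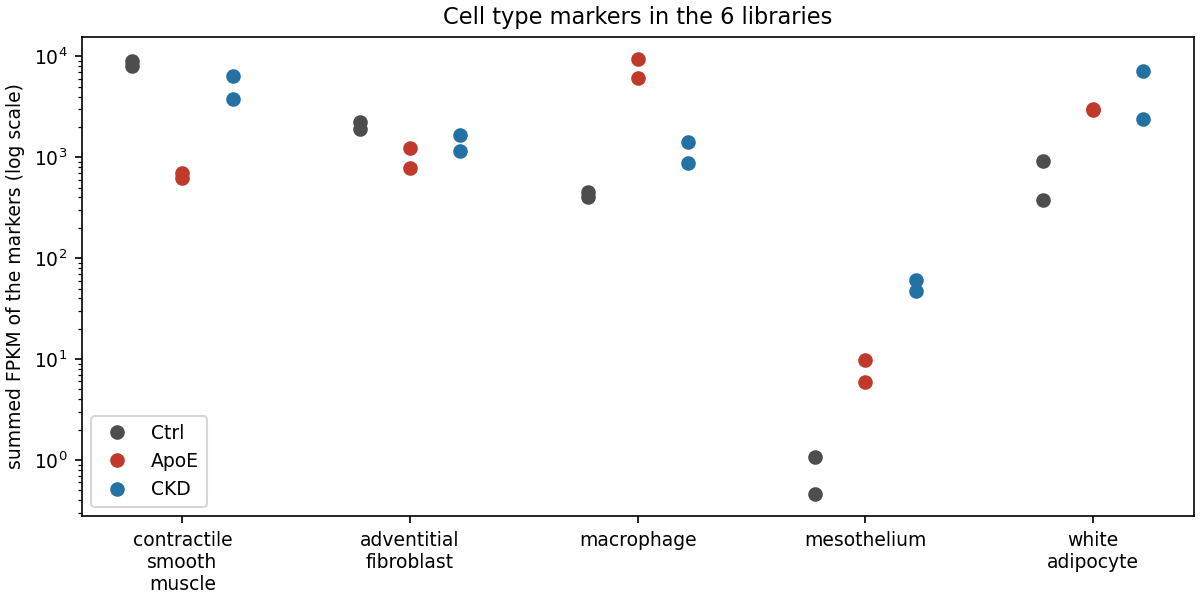
Summed FPKM of cell type markers (y axis, log scale) in each library, with 1 point per library and colours for Ctrl, ApoE and CKD. Contractile smooth muscle markers are lowest in ApoE at 707 and 618 FPKM, macrophage markers are highest in ApoE, and mesothelial markers are highest in CKD.

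Beside the lower Vcan, Hapln1 and Hyal1 of ApoE, fibroblast markers of the adventitia summed to 2232 and 1923 FPKM in Ctrl, 1224 and 785 in ApoE and 1166 and 1663 in CKD. Of these 8 markers 5 were called lower in ApoE and 1 in CKD against Ctrl, where 2 had an unadjusted limma p below 0.05. White fat markers, from tissue around the vessel, summed to 376 and 921 FPKM in Ctrl, 2962 and 3025 in ApoE, and 7228 and 2410 in CKD. Of these 7 markers 6 were called higher in ApoE and 1 in CKD against Ctrl. In CKD all 7 were higher with an unadjusted limma p below 0.05. The list median was 2.37 in ApoE against Ctrl and 2.74 in CKD against Ctrl. In ApoE against Ctrl, Vcan fell by 2.16 on the log2 scale and the contractile list had a median of −3.56. In CKD against Ctrl the value of Vcan was −0.82, not called, and the contractile median was −0.76. The part of these marker shifts in any member's level was not tested.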

How the data were processed

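Aortic polyadenylated RNA was measured in 6 libraries, 2 per group, grouped by their titles. The values were deposited with no unit named. The authors' values were taken as FPKM because, once multiplied by GENCODE M21 exon length, 89.5% to 89.9% of them were whole numbers of reads to within 0.05. Of the 9 genes, Hapln1 and Has1 did not come out in whole reads. In 5 deposited files identifiers and values shared 1 column. Build GRCm38 and the tools HISAT2 2.1.0, Bowtie2 2.2.3 and TopHat2 are named per the submitters' processing notes. What each tool did is not given in the sources used here, nor are the counter and gene models. The kit does not mark strand, so reads of overlapping genes cannot be separated. Symbols were matched for 27695 of 27815 identifiers and exon lengths for 27730.

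Values were analysed as log2(FPKM + 1) in R 4.3.3 with limma 3.58.1 (trend and robust variance), 1 model of group means over all 6 libraries, for the 14074 genes that reached 1 FPKM in 2 or more libraries. P-values were adjusted by Benjamini-Hochberg over all tested genes, and intervals are 95%. The model was tested on simulated data. With 2 libraries against 2, an exact permutation test cannot go below p = 0.333, so none was used. The genes and lists were chosen with earlier results of these data known. All 9 members are named, up to 3 called genes per pathway list and comparison by smallest adjusted p (the most abundant tested gene where none was called; further pathway genes were added after their values were seen), and for each called member the 3 genes with the highest Pearson r. Alternatives were another pseudocount, 2 other filters, 2 other scalings, limma without trend and robust variance, fits of 4 libraries, a replicate term and each library left out. A called pathway gene is not reported by name here.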

Additional observations from a re-analysis of the deposited data

How the results depend on the processing

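Each result was recomputed under 8 other settings and with each library left out. In ApoE against Ctrl 4 of the 9 genes were called, and the leave-one-out fits gave 3 to 4, the genome-wide count of 6208 ran from 2992 to 7022, and the pathway count of 29 from 19 to 34. In ApoE against CKD the 5 calls ran from 2 to 4, the 5592 genes from 2559 to 4941 and the 32 pathway genes from 15 to 33, and without a filter on low values the 5 calls became 3. In CKD against Ctrl the 3 calls ran from 0 to 4, the 766 genes from 0 to 2366 and the 6 pathway genes from 0 to 14. The count of 0 genes by limma came without Ctrl replicate 1 or Ctrl replicate 2, where 2022 and 2481 genes had an unadjusted p below 0.05, and the count of 2366 came without CKD replicate 2. With no filter, and with only the 4 libraries of the comparison, 0 of the 9 genes, 0 pathway genes and 1 gene in all were called in CKD against Ctrl, while 5 of the 9 genes had an unadjusted p below 0.05. Signs turned for Acan in CKD against Ctrl (−0.53 to 1.26 over the leave-one-out fits, below 0 without Ctrl replicate 1 at −0.02 or CKD replicate 2) and for Has3 (−0.26 to 0.46, with −0.15 without CKD replicate 2), and the cause was not tested.

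Deviations of same-numbered libraries correlated at 0.046 for Ctrl with ApoE, −0.233 for Ctrl with CKD and −0.097 for ApoE with CKD. These values show no strong shared deviation by replicate number, but they cannot exclude a pairing that touched fewer genes or had a smaller effect. With the replicate block the 9 genes gave 4, 0 and 4 calls in ApoE against Ctrl, CKD against Ctrl and ApoE against CKD, all genes gave 5159, 46 and 4556, and the pathway gave 26, 0 and 29. Levels of Has2, Hapln3 and the ApoE libraries of Has3 and Hapln1 rest on few reads, and 2 libraries per group limit every interval.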
